A study of Homo sapiens with 60 samples.

Results

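The genes described here are 42 genes of amino acid supply and tRNA charging that are controlled by, or commonly listed with, the transcription factor ATF4. These genes and the lists used below were chosen by name and role, with earlier results of these data known. All 42 were found among the 60675 genes of the deposited table. They comprise 5 transcription factors, 5 enzymes of serine, glycine and mitochondrial one-carbon metabolism, 3 enzymes of asparagine and proline synthesis, 2 enzymes of transsulfuration, 7 amino acid transporters, the secreted hormone STC2 and 19 cytosolic tRNA synthetases. Of the synthetases, 13 are commonly listed as ATF4 targets (AARS1, CARS1, EPRS1, GARS1, IARS1, LARS1, MARS1, NARS1, SARS1, TARS1, VARS1, WARS1 and YARS1) and 6 less often (FARSA, FARSB, HARS1, KARS1, QARS1 and RARS1).

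These genes were measured by RNA sequencing in SW1783, an established line of human astrocytoma cells, 24 h after treatment began. The drug groups received 10 µM of thioridazine, a phenothiazine antipsychotic, or of wortmannin or LY294002, both inhibitors of PI3-kinase. The extract groups received hot-water extracts of Poria Cocos (poria), Atractylodis Rhizoma (atractylodes), Glycyrrhizae Radix (licorice), Panax Ginseng (ginseng), Angelicae Gigantis Radix (angelica) or Paeoniae Radix (peony), each at 20, 100 and 500 µg/mL, called the low, medium and high dose. The reference was DMSO vehicle. Its strength is 0.1% by the labels of the samples but 2% by the text of the series, a disagreement that could not be settled, and the solvent content of the treated cultures was not given. All groups grew in L-15 medium with serum, which supplies amino acids. The series text adds that extracts with an IC20 (the dose giving 20% inhibition) under 500 µg/mL received less, whereas the labels give the doses above for every extract. The 60 libraries form 22 groups, 16 with 3 libraries and 6, all angelica or peony, with 2.

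ATF4 is a bZIP transcription factor whose mRNA is translated more when the initiation factor eIF2alpha is phosphorylated, as happens when amino acids run short or proteins misfold in the endoplasmic reticulum. It pairs with C/EBP family proteins on short composite sites, and its known targets make, import or load amino acids onto tRNA. Its activity is set largely at translation, so the mRNA levels given here are not a measure of ATF4 protein.

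A C/EBP-ATF composite site can be searched for by its letters, here TGATGNAA on either strand. Promoter windows from RefSeq (GRCh38.p14; 250 bases before to 50 after a gene's start) were available for 36 of the 42 members, and 14 of these 36 members (38.9%) held the motif in at least 1 window. Of all genes tested below that had a window, 347 of 12143 (2.86%) held the motif. Counted by window, 14 of 56 member windows (25.0%) held it, against 3.62% of all 35116 windows of the same length. The 13 synthetases commonly listed as ATF4 targets had it in 7 of 10 members with a window, and the other 6 synthetases in 0 of 6. The matches below belong to members whose values are given further on. Each is written on the strand that reads TGATGNAA, with the motif in capitals. The capitals are alike because the search required those letters, apart from the free letter N. The last, from SLC7A1, belongs to a member that did not pass the test after thioridazine.
ASNS (asparagine synthetase), chr7:97872458-97872487, minus strand: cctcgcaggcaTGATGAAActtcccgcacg
CEBPG (C/EBP family partner), chr19:33374060-33374089, plus strand: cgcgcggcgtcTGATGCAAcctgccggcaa
GARS1 (glycyl-tRNA synthetase), chr7:30594834-30594863, minus strand: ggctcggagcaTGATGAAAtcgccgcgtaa
AARS1 (alanyl-tRNA synthetase), chr16:70289675-70289704, plus strand: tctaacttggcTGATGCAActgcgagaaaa
CARS1 (cysteinyl-tRNA synthetase), chr11:3057407-3057436, plus strand: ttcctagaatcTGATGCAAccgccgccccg
SLC3A2 (transporter heavy chain), chr11:62881725-62881748, minus strand: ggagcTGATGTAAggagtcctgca
SLC1A4 (neutral amino acid transporter), chr2:64989381-64989410, minus strand: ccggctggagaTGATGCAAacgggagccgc
SLC7A1 (cationic amino acid transporter), chr13:29595663-29595692, minus strand: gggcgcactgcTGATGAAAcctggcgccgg

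The ASNS promoter carries the textbook example of this element. Its 250 bases before the RefSeq start, chr7:97872409-97872658 on the minus strand, are shown whole because ASNS is one of the genes followed through every treatment below, and the capitals mark the same motif, which ends 61 bases before the start: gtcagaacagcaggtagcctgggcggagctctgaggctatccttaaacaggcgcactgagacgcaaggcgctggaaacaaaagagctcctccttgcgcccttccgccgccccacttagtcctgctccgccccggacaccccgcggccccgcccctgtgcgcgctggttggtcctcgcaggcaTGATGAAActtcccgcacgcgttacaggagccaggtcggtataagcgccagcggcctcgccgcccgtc. A match is a description of the letters and does not show that a factor bound there.

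The vehicle libraries held 27.37 to 29.87 M counts, and all 60 libraries 19.45 to 30.87 M (median 26.04 M). All 42 members passed the filter on low counts. Levels are given as CPM, which scales counts to TMM-adjusted library sizes. A gene was called when the adjusted p of edgeR's quasi-likelihood test, over all 17919 genes tested, was under 0.05. Of the libraries, 4 stood apart from their groups by their spread over genes: peony high replicate 1, which also had the lowest total, atractylodes high replicate 1, licorice medium replicate 3 and angelica low replicate 2. Without them the called members numbered 15 after peony high (22 with them), 3 after atractylodes high (5), 11 after licorice medium (10) and 3 after angelica low (0), against vehicle. Of markers written down for astroglia, VIM (6017 CPM in vehicle) and CD44 (2746 CPM) were high, SOX9 and SLC1A3 stood at 81.4 and 21.9 CPM, and GFAP and S100B were near 0 (0.083 and 0.12 CPM). The sample codes put the vehicle, the drugs, poria with atractylodes, licorice with ginseng, and angelica with peony in separate sets. Against vehicle, the set and the treatment of a library cannot be told apart, while comparisons between drugs and between doses of an extract stay within 1 set. All comparisons with vehicle also share the same 3 vehicle libraries. Nothing in the labels says that replicates came from separate cultures, so the p-values speak only of the spread among libraries, which may be technical. In vehicle cells, the level per kilobase of annotated exon was highest for the glutamine transporter SLC1A5 (98.6 CPM per kb), then STC2 (87.0), GARS1 (57.7) and ATF4 (53.3), and lowest for JDP2 (1.17), CBS (1.57) and CTH (2.82). ASNS stood at 13.3 CPM per kb in vehicle.

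Thioridazine raised most of the 42 genes. Against vehicle, 32 members rose and 7 fell, where 48.4% of all genes tested were called, 24.6% higher and 23.8% lower. At a change of at least 1.5-fold, 26 members were higher and 1 was lower, against 9.59% and 6.46% of all genes. The median log2 fold change was 0.72 over the members and 0.0178 over all genes tested. The 3 genes called neither way were ATF5, SLC7A1 and the leucine synthetase LARS1 (0.09, adjusted p = 0.0641).

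Of the transcription factors, 4 of 5 rose. ATF4 (chromosome 22, 39519695 to 39522685, plus strand, GRCh38, GENCODE 29) stood at 307, 330.3 and 351 CPM in thioridazine cells, against 135, 133 and 133 CPM in vehicle cells. Every thioridazine library lay above 2 times every vehicle library, with a log2 fold change of 1.298 ± 0.05 (SE, n = 3 each; adjusted p = 1.57e-28). Its dimer partner CEBPG had 96.7, 96.7 and 104 CPM after thioridazine and 46.9, 48.5 and 47.2 CPM in vehicle (1.06 ± 0.05). CEBPB, another C/EBP partner, had 148, 146 and 145 CPM after thioridazine and 57.6, 71.1 and 70.6 CPM in vehicle (1.14 ± 0.08). The AP-1 family repressor JDP2 rose by 0.92 ± 0.10. ATF5, the closest relative of ATF4, had 34.2, 34.8 and 32.9 CPM after thioridazine and 35.2, 34.0 and 33.5 CPM in vehicle, so the groups overlapped (-0.01 ± 0.06, adjusted p = 0.914). ATF5 shares 626 bases with the more abundant NUP62, so its counts are uncertain.

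All 5 enzymes of the serine and one-carbon branch rose. PHGDH, which commits the glycolytic intermediate 3-phosphoglycerate to serine synthesis, had 108, 114 and 118 CPM after thioridazine and 39.2, 39.6 and 38.0 CPM in vehicle (1.54 ± 0.06). PSAT1, the next enzyme of that route, had 217, 214 and 235 CPM after thioridazine and 66.9, 68.6 and 70.7 CPM in vehicle (1.69 ± 0.05). These sets are far apart. The last enzyme of the route, PSPH, rose less, by 0.44, and the mitochondrial folate enzymes SHMT2 and MTHFD2 rose by 0.77 and 0.79.

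ASNS (chromosome 7, 97852118 to 97872542, minus strand) makes asparagine from aspartate and glutamine. It stood at 203, 212 and 223 CPM in thioridazine cells, against 58.8, 60.7 and 58.1 CPM in vehicle cells, a log2 fold change of 1.85 ± 0.05 (adjusted p = 5.94e-35), with every treated library above 3 times each vehicle library. PYCR1, which makes proline, rose by 0.78. ALDH18A1, the enzyme before it in the proline route, fell to 111, 104 and 102 CPM after thioridazine, against 131, 132 and 132 CPM in vehicle (-0.32 ± 0.04). ASNS shares 1985 exon bases on its strand with the transcript gene AC079781.5, so reads between them may be split.

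Both transsulfuration enzymes, which turn homocysteine into cysteine, were among the members with the largest changes. CBS (chromosome 21, 43053191 to 43076943, minus strand) had 39.5, 33.0 and 48.7 CPM after thioridazine and 9.89, 10.4 and 11.7 CPM in vehicle (1.93 ± 0.13, adjusted p = 1.18e-17); its near-identical copy CBSL makes its counts uncertain. CTH (chromosome 1, 70411218 to 70439851, plus strand) had 23.4, 24.0 and 29.1 CPM after thioridazine and 6.85, 7.05 and 6.49 CPM in vehicle (1.91 ± 0.08). Both were among the lowest members in vehicle cells.

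Of the 7 transporters, 6 rose. SLC3A2, the heavy chain of several exchangers, had 323, 322 and 342 CPM after thioridazine and 136, 149.6 and 141 CPM in vehicle (1.21 ± 0.06). SLC7A5, the light chain that imports large neutral amino acids, had 454, 443 and 470.4 CPM after thioridazine and 217, 206 and 215 CPM in vehicle (1.098 ± 0.04). SLC6A9, a glycine transporter, had 80.3, 80.8 and 90.0 CPM after thioridazine and 35.8, 33.6 and 41.4 CPM in vehicle (1.18 ± 0.07). These 3 groups of values do not overlap. SLC1A4, a transporter of neutral amino acids, had 65.5, 69.2 and 69.7 CPM after thioridazine and 33.4, 33.2 and 30.4 CPM in vehicle (1.07 ± 0.05). SLC7A1, the importer of cationic amino acids, had 151, 145 and 156 CPM after thioridazine and 154, 146 and 152 CPM in vehicle (0.00 ± 0.06, adjusted p = 0.993). SLC38A2, a glutamine and alanine importer, had 511, 494 and 559 CPM after thioridazine and 325, 309.6 and 331 CPM in vehicle (0.70 ± 0.05), with every thioridazine library above every vehicle library. STC2, a stanniocalcin hormone, had 756, 744 and 748 CPM after thioridazine and 525, 528 and 546 CPM in vehicle (0.49 ± 0.06).

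**Figure D1:**
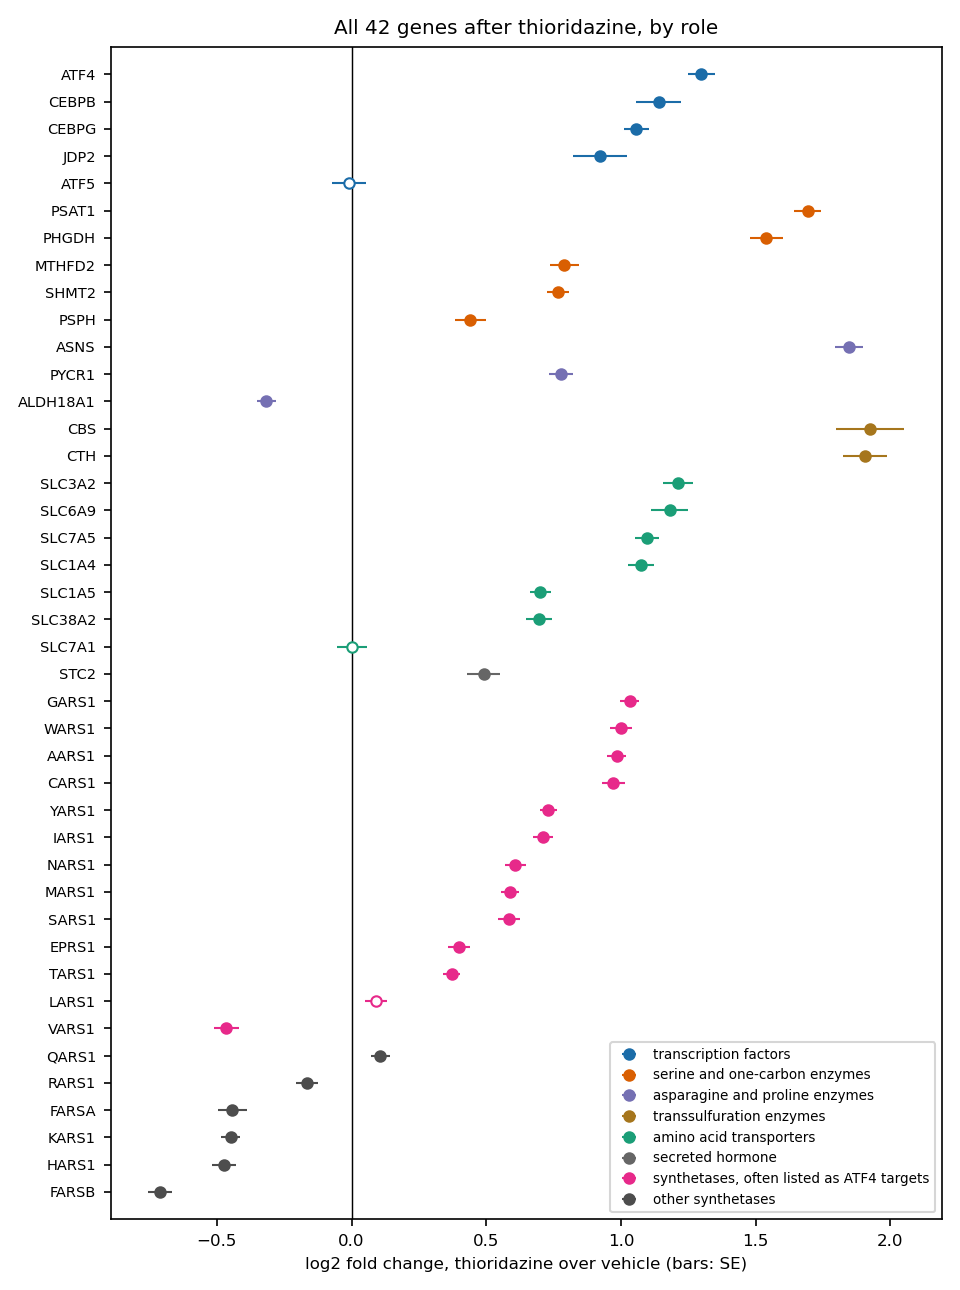
Log2 fold change of the 42 members in thioridazine against vehicle cells (horizontal axis), by gene (vertical axis, grouped by role), with bars for the SE and hollow points for members not called. The largest rises belong to CBS, CTH, ASNS and PSAT1, while FARSB fell by 0.71 and HARS1, KARS1, FARSA, VARS1, ALDH18A1 and RARS1 also lie below 0.

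The tRNA synthetases split by list. Of the 13 commonly listed as ATF4 targets, 11 rose and 1 fell (median 0.608), and of the 6 less often listed, 1 rose and 5 fell (median -0.445). GARS1, which charges glycine (chromosome 7, 30594681 to 30634033, plus strand), had 490.2, 483 and 496 CPM after thioridazine and 236, 243 and 239 CPM in vehicle (1.03 ± 0.04, adjusted p = 3.68e-31). WARS1, which charges tryptophan, had 553, 562 and 562 CPM after thioridazine and 285, 277 and 276 CPM in vehicle (1.00 ± 0.04). Both lay near 2 times their vehicle level. AARS1 and CARS1 rose by 0.98 and 0.97, YARS1 and IARS1 by 0.73 and 0.71, and EPRS1 and TARS1 by 0.40 and 0.37. MARS1 (0.59) overlaps DDIT3 on the opposite strand by 355 bases, and DDIT3 rose by 1.57; no source used here says whether counting used strand, so MARS1 is uncertain. The exception in the first list, VARS1 for valine, fell to 155, 138 and 144 CPM after thioridazine, against 206, 198 and 199 CPM in vehicle (-0.46 ± 0.05).

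In the second list, FARSB, a subunit of the phenylalanine enzyme (chromosome 2, 222570536 to 222656337, minus strand), had 54.2, 57.0 and 53.7 CPM after thioridazine and 92.6, 90.0 and 87.1 CPM in vehicle (-0.71 ± 0.04). Its partner subunit FARSA fell by 0.44, HARS1 by 0.47 (it shares 437 bases with HARS2 on the other strand), KARS1 by 0.45 and RARS1 by 0.16. QARS1, for glutamine, was the exception and rose by 0.11; this call ended without vehicle replicate 1 (adjusted p = 0.0598). The summed level of the 13 genes was 4176, 4171 and 4265 CPM after thioridazine and 2720, 2724 and 2718 CPM in vehicle, and that of the other 6 was 676.5, 672.0 and 657.3 CPM after thioridazine and 815.0, 822.3 and 826.3 CPM in vehicle. The ratio of the first sum to the second was 6.17, 6.21 and 6.49 in thioridazine libraries and 3.34, 3.31 and 3.29 in vehicle libraries; the lists were drawn up with earlier results known, so this is a description.

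The members with a window were also counted by motif, as a description. Of the 14 with TGATGNAA, 13 rose and 0 fell after thioridazine (median log2 fold change 0.946), the remaining 1 being SLC7A1. Of the 22 without it, 15 rose and 6 fell (median 0.64). Markers of cell types moved as well. Of the 4 neuronal markers, 2 were tested. SYT1 rose (mean 68.9 CPM, against 36.9 CPM in vehicle) and SNAP25 fell (17.9 against 20.4 CPM). The summed level of the 4 was 84.3 to 89.3 CPM after thioridazine and 56.8 to 59.2 CPM in vehicle. RBFOX3 and STMN2 were near 0 (0.179 and 0.180 CPM in vehicle). Of the 4 oligodendrocyte markers, 2 of 3 tested rose, with sums of 9.78 to 11.3 CPM after thioridazine and 5.28 to 5.81 CPM in vehicle and MOG at 0. Of the 4 microglial and blood markers, PTPRC was the 1 tested and fell, with sums of 3.47 to 3.76 CPM after thioridazine and 8.41 to 9.03 CPM in vehicle and AIF1 and HBB at 0. Of the 9 astroglial markers, 2 of 5 tested rose and 3 fell. SOX9 and SLC1A3 rose (means of 111 and 33.1 CPM, against 81.4 and 21.9 CPM in vehicle), while VIM, CD44 and NES fell. The astroglial sums were 6358 to 6544 CPM after thioridazine and 8642 to 9035 CPM in vehicle. Here and below these sums are nearly all VIM and CD44 (4249 and 2063 CPM after thioridazine, 6017 and 2746 CPM in vehicle). Of 3 endothelial markers, PECAM1 was the 1 tested and rose, and of 3 epithelial markers 0 were tested. The part of these changes in the results was not tested.

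The PI3-kinase inhibitors did not raise the set as a whole. After wortmannin 7 members rose and 21 fell (31.7% of all genes were called, 15.4% higher and 16.4% lower; median -0.105 over the members and 0.0194 over all genes), and after LY294002 13 rose and 17 fell (39.3% were called, 19.4% higher and 19.9% lower; median -0.033 and 0.0168). ATF4 had 135, 130.1 and 130.2 CPM after wortmannin, 138, 139.6 and 133 CPM after LY294002 and 135, 133 and 133 CPM in vehicle, overlapping in both cases (log2 fold change -0.02 and 0.03). ASNS rose after both, with 71.5, 71.4 and 73.2 CPM after wortmannin (0.28 ± 0.05, adjusted p = 2.18e-05) and 84.0, 90.0 and 86.7 CPM after LY294002 (0.55 ± 0.05, adjusted p = 1.2e-12), all above the vehicle libraries. CTH rose as well, by 0.46 after wortmannin and 0.53 after LY294002. CEBPB had 78.8, 79.9 and 87.4 CPM after wortmannin (0.31, adjusted p = 0.00409, and 0.22 and adjusted p = 0.0619 without vehicle replicate 1) and 102, 105 and 108 CPM after LY294002 (0.66, adjusted p = 1.46e-08).

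SLC38A2 was the member with the largest rise after both inhibitors. It had 513, 499.6 and 495 CPM after wortmannin (0.64, adjusted p = 1.47e-15) and 570.1, 513 and 544 CPM after LY294002 (0.75, adjusted p = 3.45e-18). These levels overlap those after thioridazine. Synthetases mostly fell: of the 13 commonly listed, 0 rose and 9 fell after wortmannin, and 2 rose and 7 fell after LY294002, while of the other 6, 1 rose and 5 fell after each. The wortmannin count rested on single libraries: without wortmannin replicate 2 the calls of EPRS1 (adjusted p = 0.195), GARS1 (0.0968), NARS1 (0.0521) and YARS1 (0.0623) ended, which left 5 of the 13 lower, and the same 4 calls ended without vehicle replicate 2. RARS1 lost its call after wortmannin whichever of the wortmannin or vehicle libraries was left out. After LY294002, YARS1 lost its call when any library of the compared groups but vehicle replicate 1 was left out. The rise of CARS1 after LY294002 lost its call without LY294002 replicate 2 (adjusted p = 0.204) or vehicle replicate 1 (adjusted p = 0.138). VARS1 had 135, 136 and 137 CPM after wortmannin (-0.56) and 141, 144 and 140.0 CPM after LY294002 (-0.51), and FARSB fell by 0.42 and 0.49. Cell type markers moved too: the neuronal markers summed to 75.5 to 83.4 CPM after wortmannin (2 of 2 tested rose), 61.1 to 64.9 CPM after LY294002 (1 of 2 rose) and 56.8 to 59.2 CPM in vehicle. The microglial and blood markers summed to 5.99 to 6.73 CPM after wortmannin, 5.41 to 7.00 CPM after LY294002 and 8.41 to 9.03 CPM in vehicle, with PTPRC, the 1 tested, lower after both and AIF1 and HBB at 0. The oligodendrocyte markers summed to 5.93 to 7.40 CPM after wortmannin (1 of 3 tested rose), 5.46 to 6.15 CPM after LY294002 (0 of 3) and 5.28 to 5.81 CPM in vehicle. Of 5 astroglial markers tested, 1 rose after wortmannin, SLC1A3 (36.7 CPM after wortmannin and 21.9 CPM in vehicle), and 1 rose and 1 fell after LY294002; their sums were 8354 to 8538, 8046 to 8566 and 8642 to 9035 CPM after wortmannin, after LY294002 and in vehicle. PECAM1, the 1 endothelial marker tested, rose after wortmannin (1.40 CPM, against 0.728 CPM in vehicle). The part of these changes in the results was not tested.

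**Figure D2:**
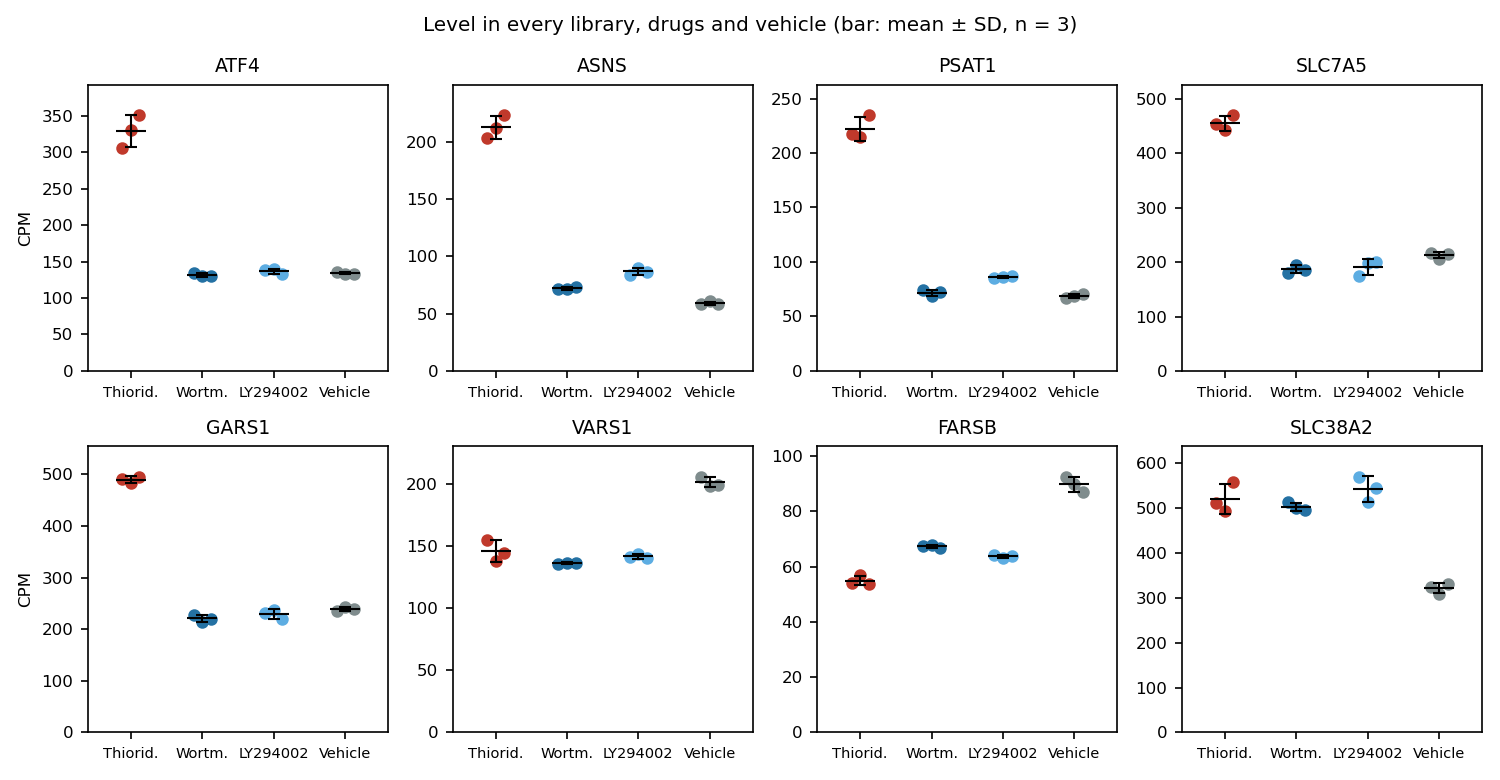
CPM per library (vertical axes) of members named in the text in thioridazine, wortmannin, LY294002 and vehicle cells (horizontal axis), 3 points per group. For ATF4 the thioridazine libraries at 307 to 351 CPM stand apart from the other 3 groups, while for SLC38A2 all 3 drugs stand above vehicle.

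Between drugs, which share 1 sample set, thioridazine stood apart again. Against LY294002, 33 members were higher and 3 lower (40% of all genes called, 19.5% higher and 20.4% lower), and against wortmannin 33 were higher and 3 lower (38.7% called, 18.9% higher and 19.8% lower). In the comparison with LY294002 ATF4 differed by 1.27 ± 0.05, ASNS by 1.29 ± 0.05 and GARS1 by 1.095 ± 0.04. All 5 transcription factors were higher after thioridazine than after LY294002, ATF5 by 0.36. Of the 13 commonly listed synthetases, 12 were higher and 0 lower, VARS1 not being called (0.04, adjusted p = 0.521). Of the other 6, 0 were higher and 2 were lower, FARSB by 0.22 and HARS1 by 0.21. SLC38A2 did not differ beyond the spread (-0.06 ± 0.05, adjusted p = 0.374). Between the inhibitors, wortmannin against LY294002, 7 members were lower and 0 higher (16.4% of all genes called, 8.79% higher and 7.57% lower): CEBPB by 0.36, PHGDH by 0.19, PSAT1 by 0.26, ASNS by 0.27, PYCR1 by 0.20, SLC1A4 by 0.17 and AARS1 by 0.25. The number of members called between the inhibitors is near the share of all genes called. The calls of PHGDH and SLC1A4 ended when single libraries were left out.

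**Figure D3:**
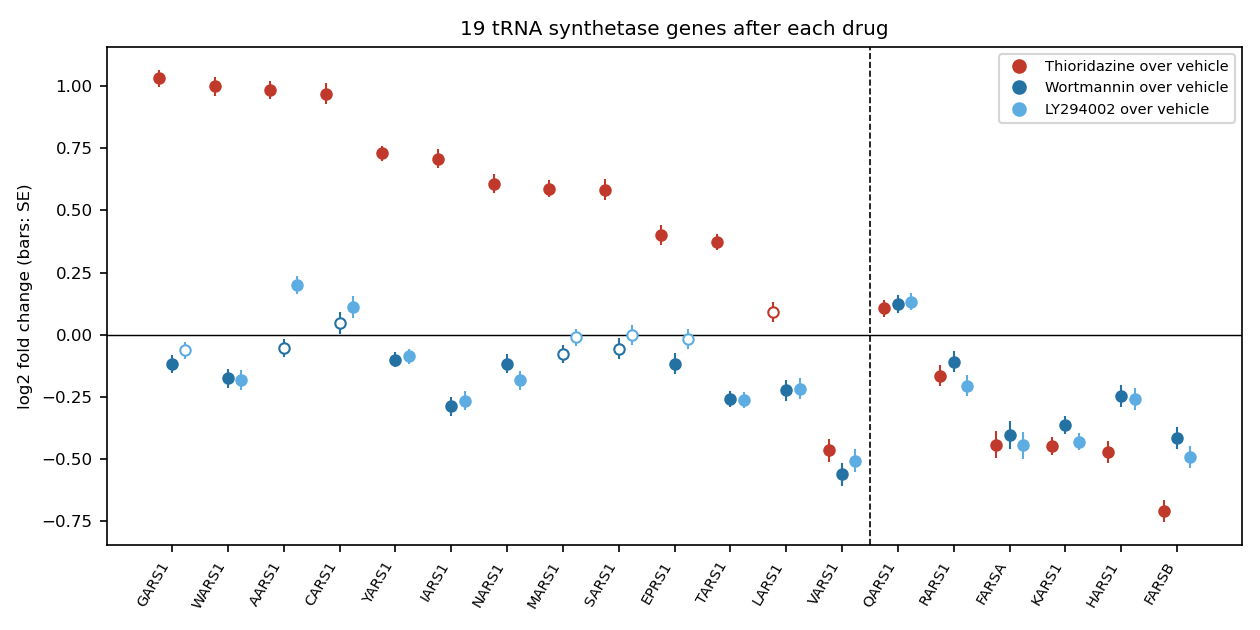
Log2 fold change against vehicle (vertical axis) of the 19 cytosolic tRNA synthetases (horizontal axis) after thioridazine, wortmannin and LY294002, with bars for the SE. The 13 commonly listed as ATF4 targets lie mostly above 0 after thioridazine and mostly at or below 0 after the inhibitors, with VARS1 below 0 after all 3 drugs.

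Among the extracts, licorice raised members at its high dose. Of the 42, 19 rose and 6 fell (30.9% of all genes called, 15.9% higher and 15% lower; median 0.069 over the members and 0.0083 over all genes). SLC3A2 had 158, 152 and 164 CPM at the low, 183, 179 and 209.9 at the medium and 258, 252 and 261 at the high dose, against 136, 149.6 and 141 CPM in vehicle (high against vehicle 0.86 ± 0.06, adjusted p = 2.45e-18). Every high-dose library lay above every library of the lower doses. CEBPB had 71.2, 69.5 and 62.9 CPM at the low, 93.9, 86.2 and 93.9 at the medium and 111, 101 and 107 at the high dose, against 57.6, 71.1 and 70.6 CPM in vehicle (0.68, adjusted p = 1.2e-08). ASNS had 60.7, 61.8 and 61.3 CPM at the low, 62.2, 63.7 and 74.9 at the medium and 83.4, 90.0 and 91.1 at the high dose, against 58.8, 60.7 and 58.1 CPM in vehicle (0.58, adjusted p = 4.11e-13). The 74.9 CPM came from licorice medium replicate 3, a library that stood apart. SLC7A5 and PSAT1 rose by 0.50 and 0.45, and AARS1, the most changed synthetase, had 229.8, 233 and 237 CPM at the high dose, against 188, 186 and 186 CPM in vehicle (0.32).

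ATF4 itself had 146, 148 and 144 CPM at the high dose of licorice, against 135, 133 and 133 CPM in vehicle, which did not pass the test (0.12 ± 0.05, adjusted p = 0.056); a fit of those 2 groups alone called it (adjusted p = 0.00378). Against the low dose, with 117, 124 and 119 CPM, it was higher by 0.29 (adjusted p = 2.54e-05), with no overlap. Within the licorice set, 20 members were higher and 3 lower at the high than at the low dose (18.2% of all genes called), among them SLC3A2 by 0.70, CEBPB by 0.65, SLC7A5 by 0.62, CBS by 0.61 and ASNS by 0.53. SLC38A2 fell, with 243, 240.1 and 232 CPM at the high dose against 325, 309.6 and 331 CPM in vehicle (-0.43, adjusted p = 5.19e-10). QARS1 fell by 0.28. HARS1 and SARS1 fell and NARS1 rose at the high dose against vehicle, but these calls ended without some single libraries. The HARS1 call ended whichever of the licorice high or vehicle libraries was left out. The astroglial markers summed to 6868 to 7181 CPM at the high dose and 8642 to 9035 CPM in vehicle (0 of 5 tested rose and 4 fell), and the part of this in the results was not tested. At the medium dose 3 members rose and 7 fell (25.2% called), a count near the share of all genes. At the low dose GARS1 and YARS1 were lower and 0 members higher (3.29% called).

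Peony, poria, ginseng and angelica at the high dose lowered more members than they raised. After peony 1 rose and 21 fell (median -0.147), where 20.7% of all genes were called, 10.3% higher and 10.4% lower. After poria 2 rose and 15 fell, where 11.6% were called, 5.17% higher and 6.41% lower. After ginseng 1 rose and 15 fell, where 7.25% were called, 3.05% higher and 4.2% lower. After angelica 0 rose and 10 fell, where 6.46% were called, 2.94% higher and 3.53% lower. These comparisons share the vehicle libraries, so the values of ATF4, ASNS and WARS1 are given side by side for each. ATF4 had 101 and 113 CPM after peony (-0.32), 108, 102 and 113 CPM after poria (-0.31), 107, 114 and 116 CPM after ginseng (-0.25) and 108 and 108 CPM after angelica (-0.31), against 135, 133 and 133 CPM in vehicle. In every case the groups did not overlap. ASNS had 49.98 and 50.7 CPM after peony, 47.7, 48.9 and 46.9 CPM after poria, 47.8, 55.1 and 52.2 CPM after ginseng and 49.3 and 51.2 CPM after angelica, against 58.8, 60.7 and 58.1 CPM in vehicle. WARS1 was the most changed synthetase in all 4, at -0.32, -0.30, -0.22 and -0.29 for peony, poria, ginseng and angelica.

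Other members moved in some of these extracts. STC2 rose after peony, with 657 and 716 CPM against 525, 528 and 546 CPM in vehicle (0.37). PSAT1 fell to 52.5 and 51.9 CPM after peony, against 66.9, 68.6 and 70.7 CPM in vehicle (-0.40). CBS had 8.85 and 5.01 CPM after angelica and 9.89, 10.4 and 11.7 CPM in vehicle (-0.61 ± 0.17, adjusted p = 0.0179), with the angelica libraries well apart from each other. The astroglial markers summed to 6844 to 7613 CPM after peony and 8642 to 9035 CPM in vehicle (1 of 5 tested rose and 3 fell). Markers near 0 in vehicle differed widely between the peony libraries, at 0.104 and 1.254 CPM for GFAP, 0 and 1.013 CPM for AQP4, 0.0694 and 1.303 CPM for ALDH1L1, 0.139 and 1.061 CPM for the neuronal RBFOX3, 0.0694 and 0.675 CPM for the microglial CX3CR1, 0 and 0.724 CPM for the epithelial CDH1 and 0.173 and 0.965 CPM for the endothelial VWF. Each pair is given lowest first, and the higher value came from peony high replicate 1, the library that stood apart. In vehicle these 7 genes averaged between 0.0115 CPM (AQP4 and ALDH1L1) and 0.179 CPM (RBFOX3). The summed microglial and blood markers were 9.71 and 12.1 CPM after peony and 8.41 to 9.03 CPM in vehicle, and the oligodendrocyte markers 8.05 and 10.2 CPM after peony and 5.28 to 5.81 CPM in vehicle. In both sums the higher peony value was again that of replicate 1. The part of these markers in the peony results was not tested. SLC7A5 fell to 168, 158 and 155 CPM after ginseng (-0.41) and to 159 and 153 CPM after angelica (-0.45), against 217, 206 and 215 CPM in vehicle. SLC7A5 was also called lower than vehicle at the low dose of ginseng. Its calls at the high against the low dose ended without some single libraries. Examples are ginseng high replicate 2 (-0.19, adjusted p = 0.0856) and angelica high replicate 2 (-0.26, adjusted p = 0.147).

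Single libraries weighed on several of these counts. The count for peony was 12 without peony high replicate 1, that for ginseng 10 without vehicle replicate 1 or ginseng high replicate 1 and 9 without vehicle replicate 2, and that for angelica 4 without either angelica high library and 6 without vehicle replicate 3. Without angelica high replicate 2, CBS stood at -0.27 and was not called (adjusted p = 0.630). ASNS was not called after ginseng without ginseng high replicate 1 (-0.14, adjusted p = 0.163), after peony without peony high replicate 1 (-0.22, adjusted p = 0.0703), or after angelica without angelica high replicate 1 (-0.21, adjusted p = 0.172). The calls of PSAT1, SHMT2 and IARS1 after ginseng and angelica also ended without some single libraries, as did those of AARS1 after angelica without angelica high replicate 1 (-0.12, adjusted p = 0.294) and after peony without peony high replicate 1 (-0.09, adjusted p = 0.294), of IARS1 after peony without that library (adjusted p = 0.158) and of SHMT2 after poria without vehicle replicate 1 (adjusted p = 0.0581). After poria the rise of CEBPB ended without poria high replicate 1 or 2 (0.21, adjusted p = 0.194 without replicate 2) or vehicle replicate 1. The EPRS1 call after poria ended without any compared library but poria high replicate 2, and the JDP2 call without several. The rise of SLC38A2 after ginseng ended without any compared library but ginseng high replicate 3. ATF4 and WARS1 stayed called against vehicle in each of the 4 extracts whichever library was left out.

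Comparing the high with the low dose inside a set, fewer members passed: 0 higher and 8 lower for poria (5.51% of all genes called), 1 and 9 for peony (5.9%), 0 and 4 for ginseng (0.653%) and 0 and 3 for angelica (0.943%). ATF4 was lower at the high than at the low dose of poria by 0.24 and did not pass for peony (-0.14, adjusted p = 0.213), ginseng (-0.13, adjusted p = 0.362) or angelica (-0.17, adjusted p = 0.219). It was called lower without peony high replicate 2 (-0.23, adjusted p = 0.0278) and without angelica low replicate 1 (-0.29, adjusted p = 0.0152). PSAT1 was lower at the high dose of peony by 0.49, at 52.5 and 51.9 CPM against 72.1 and 74.5 CPM at the low dose. The counts moved with single libraries: that for peony was 18 without peony high replicate 2 and 6 without peony low replicate 2, that for ginseng 1 without ginseng high replicate 2 and 2 without ginseng high replicate 3, and that for angelica 7 without angelica low replicate 1 and 1 without angelica low replicate 2.

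At the high dose of atractylodes 4 members were called higher and 1 lower, where 13.9% of all genes were called, 7.24% higher and 6.63% lower. Among 42 members this count is near the share of all genes. STC2 had 569, 589 and 557 CPM at the low, 633, 646 and 639 at the medium and 795, 803 and 788 at the high dose, against 525, 528 and 546 CPM in vehicle, each dose above the one before it (high against vehicle 0.58, adjusted p = 4.12e-10). CEBPB and SLC3A2 rose by 0.33 and 0.23, SLC7A1 fell by 0.16, and RARS1 rose to 207, 180.3 and 180.1 CPM, against 174, 175 and 173 CPM in vehicle (0.12, adjusted p = 0.0429). ATF4 had 154, 137 and 137 CPM and ASNS 55.8, 53.9 and 54.8 CPM at the high dose, and neither passed the test (0.09, adjusted p = 0.244, and -0.11, adjusted p = 0.17). Against the low dose 4 members were higher and 1 lower (4.1% called), ATF4 by 0.21 (adjusted p = 0.00795).

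These calls depended on single libraries. The count against vehicle was 2 without vehicle replicate 1 or atractylodes high replicate 1 and 3 without vehicle replicate 3. Without atractylodes high replicate 1, which carried the highest RARS1, CEBPB and ATF4 values, RARS1 stood at 0.06 (adjusted p = 0.533), CEBPB at 0.22 (adjusted p = 0.161), SLC7A1 at -0.07 (adjusted p = 0.554) and ATF4 against the low dose at 0.15 (adjusted p = 0.162), while STC2 stayed called whichever library was left out. The count between doses was 2 without atractylodes high replicate 1 or low replicate 2, and 3 without high or low replicate 3.

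**Figure D4:**
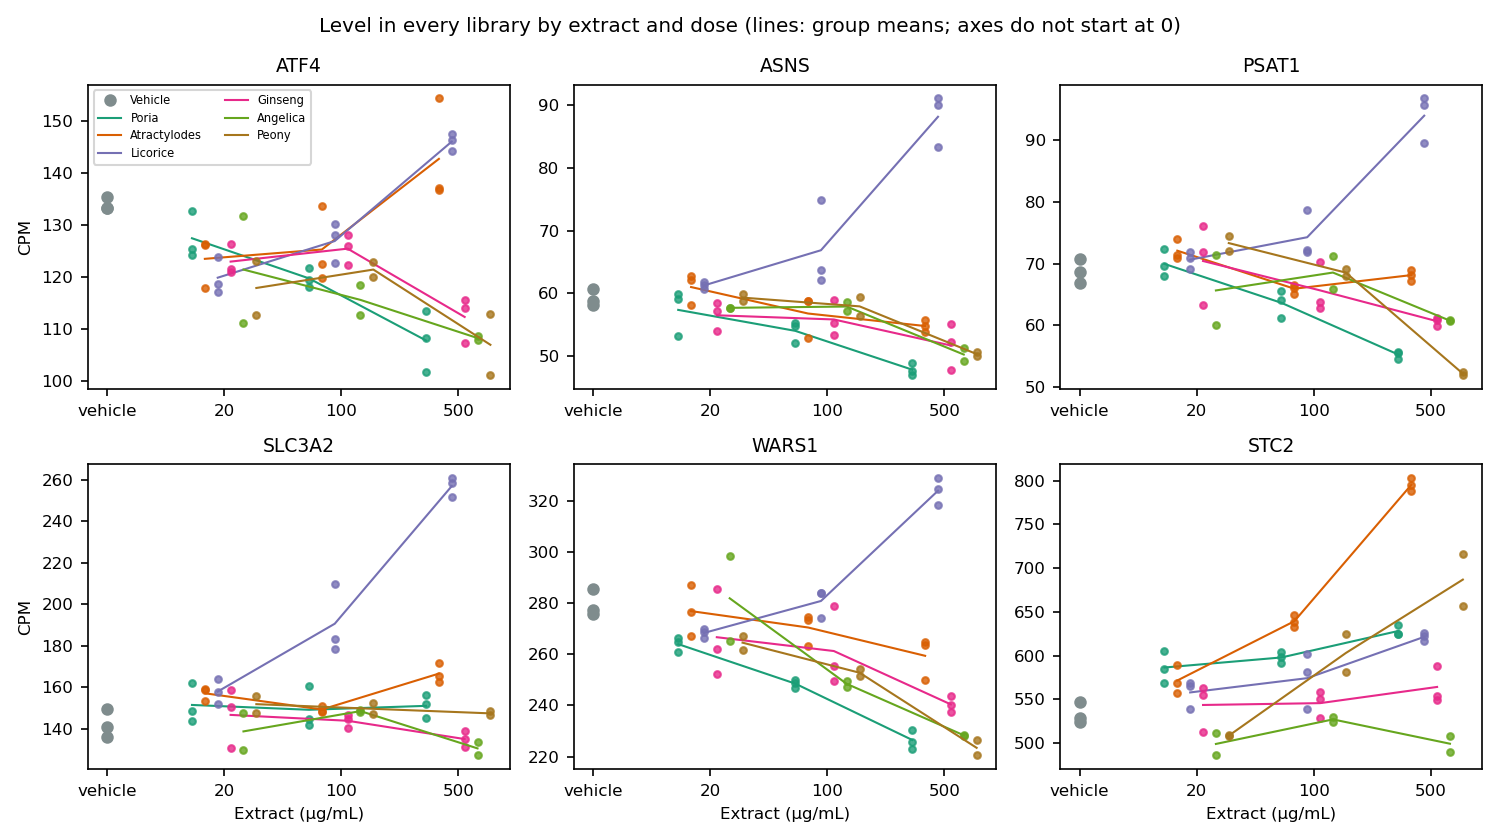
CPM per library (vertical axes) of members in the extract groups by dose, with vehicle at the low end (horizontal axes: vehicle, 20, 100 and 500 µg/mL). Licorice rises with dose for SLC3A2, and STC2 rises with dose for atractylodes. ASNS is highest at the high dose of licorice. At the medium dose its clearest rise is in replicate 3 (74.9 CPM), a library that stood apart.

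At the medium and low doses of the other extracts few members were called. Poria at the medium dose lowered SLC7A5, SLC7A1 and WARS1 (1.47% of all genes called), angelica at the medium dose SLC7A5, ATF4, WARS1 and GARS1 (2.91%) and peony at the low dose SLC7A5, SLC7A1 and ATF4 (5.23%). SLC7A5 alone was lower at the low doses of poria (0.419%), atractylodes (0.804%) and ginseng (0.592%) and at the medium doses of ginseng (0.569%) and peony (2.55%). STC2 was higher by 0.26 at the medium dose of atractylodes (1.06%), and 0 members were called at the low dose of angelica (1.75%).

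Most of these calls ended when 1 library was left out. The count for poria medium was 1 without vehicle replicate 1, and that for peony low 0 without peony low replicate 1 and 1 without peony low replicate 2 or vehicle replicate 1 or 3. The count for angelica medium was 0 without angelica medium replicate 1, 1 without angelica medium replicate 2 or vehicle replicate 1 and 2 without vehicle replicate 2 or 3. For licorice low it was 0 without licorice low replicate 2 or 3 and 1 without any other library, and for angelica low 2 without angelica low replicate 2. Of the groups with 1 called member, poria low had 0 without poria low replicate 2, ginseng low had 0 without vehicle replicate 1 or 3 or its own replicate 2 or 3, and atractylodes low had 0 without vehicle replicate 1 or 3 or its own replicate 1 or 3. Ginseng medium had 0 without vehicle replicate 1 or 3 or its own replicate 2 or 3, peony medium 0 without vehicle replicate 1 or 3 or either of its own libraries, and atractylodes medium 0 without vehicle replicate 1 or 2 or its own replicate 2 or 3.

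Other genes of the pathway, from lists of genes that are not members, were counted too, to be read against the shares of all genes called: 48.4% after thioridazine, 31.7% after wortmannin, 39.3% after LY294002, 30.9% at the high dose of licorice and 20.7% at that of peony. Of 14 tested among other ATF4 targets, 13 rose and 1 fell after thioridazine, led by the stress hormone GDF15 (5.29), the stress-response cofactor NUPR1 (3.35) and the pseudokinase TRIB3 (2.82). Of 8 eIF2 kinases, sensors and phosphatase subunits, 3 rose and 1 fell, with the phosphatase subunit PPP1R15A at 1.07 and the kinase gene EIF2AK3 at 0.66. Of 10 other amino acid enzymes 4 rose and 5 fell, with the mitochondrial folate enzyme ALDH1L2 at 1.43, and of 6 other transporters 2 rose and 1 fell, with the glutamine importer SLC38A1 at 1.36 and the neutral amino acid transporter SLC43A1 at 1.15. Of 17 mitochondrial tRNA synthetases, 2 rose and 7 fell, the leucine enzyme LARS2 by 0.45. The called shares of the eIF2 list, the other transporters and the mitochondrial synthetases lie near the share of all genes. After wortmannin 3 of the 14 other targets rose and 5 fell, and after LY294002 2 rose and 4 fell. At the high dose of licorice 11 of them rose and 1 fell, led by GDF15 (1.41), the glutathione-cleaving enzyme CHAC1 (0.96) and ATF3 (0.84). At the high dose of peony 1 rose and 8 fell, with the mTORC1 inhibitor DDIT4 at -0.75.

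**Figure D5:**
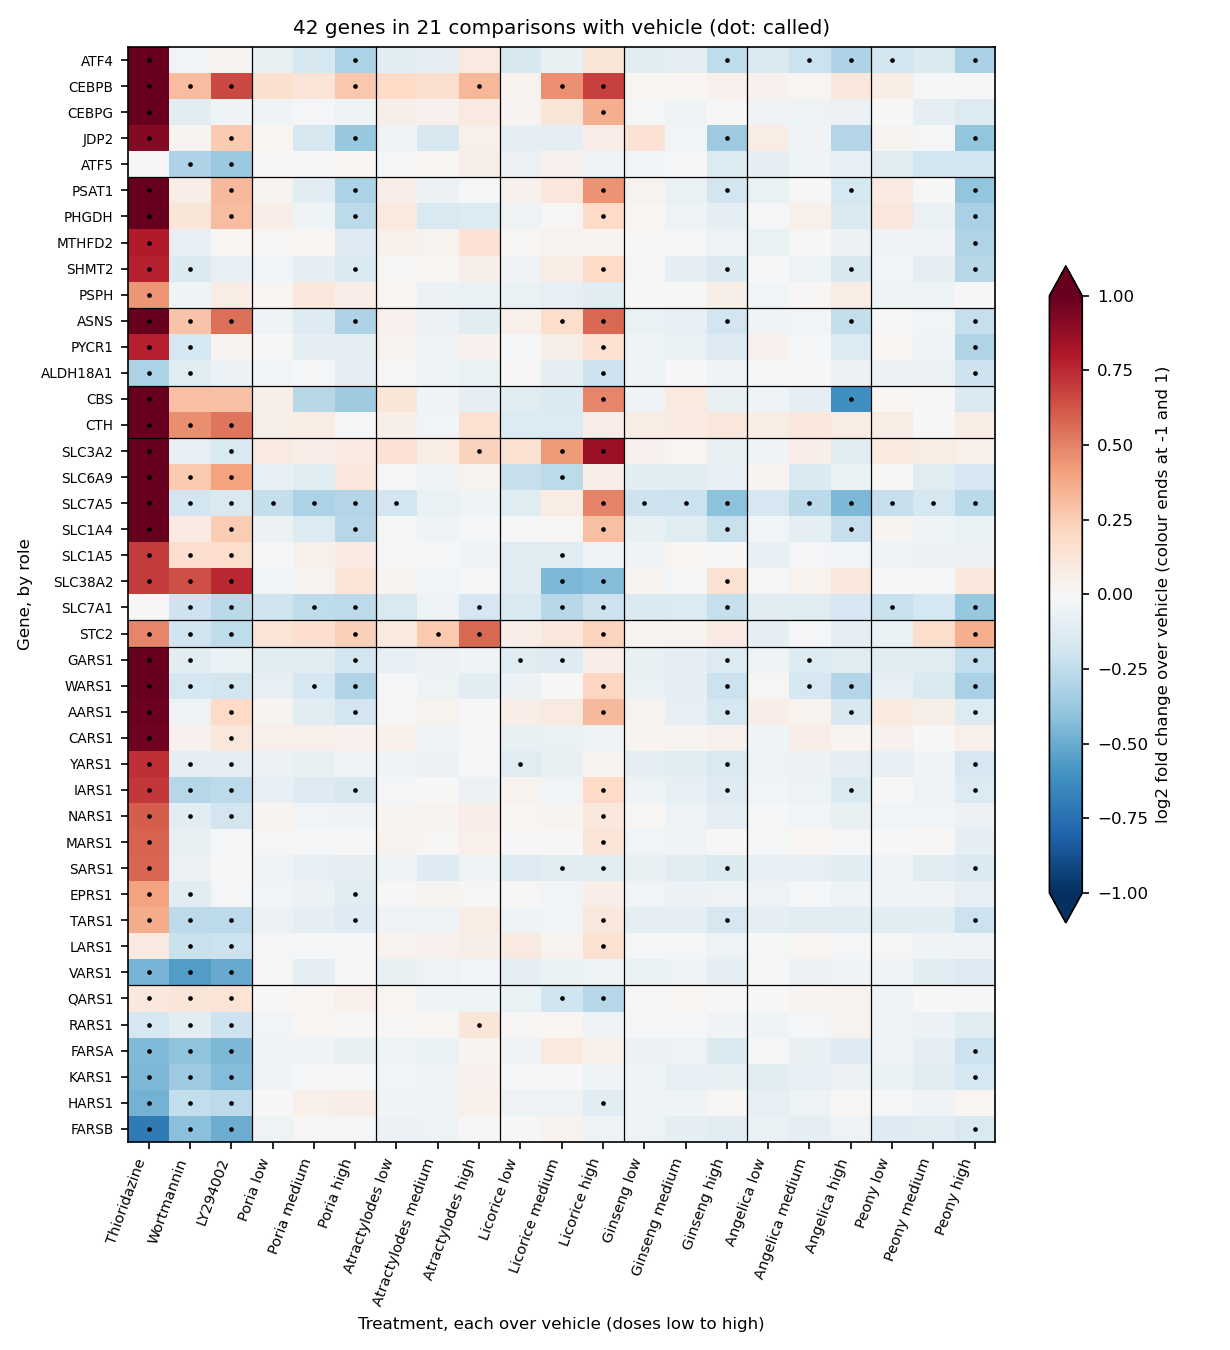
Log2 fold change of the 42 members (rows by role) in every comparison with vehicle (columns), with colours ending at -1 and 1 and a dot where a member was called. Thioridazine has 32 members called higher, licorice high has 19 members called higher, and the high doses of peony, poria, ginseng and angelica have 21, 15, 15 and 10 called lower.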

How the data were processed

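RNA of the 60 libraries was read as paired ends on an MGIseq instrument from a directional library kit, per the labels. Values in the deposited table are expected counts, by gene and not normalised between samples; per the submitters' processing notes, the tools were RSEM 1.3.3, STAR 2.7.3a, Trim Galore 0.6.5 and FastQC 0.11.9, on GRCh38. No source used here says whether counting used strand. Of the 279 columns, 60 were used, leaving 219 not used here. Of the expected counts, 9.48% were not whole (tolerance 1e-06) and all were rounded. Of 60675 genes, 41209 carried a symbol.

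With edgeR 4.0.16 in R 4.3.3, filterByExpr (minimum count 10, minimum total 15) left 17919 genes. All 60 libraries were scaled by TMM and fitted in 1 robust quasi-likelihood model with a coefficient per group (biological coefficient of variation 0.051). The 30 comparisons used edgeR's two-sided quasi-likelihood test, with p adjusted by Benjamini and Hochberg's method over every gene tested, at a threshold of 0.05. The SE is the log2 fold change divided by the square root of F, without sign. Depth sets the counting error, which is smallest for the abundant members and largest for JDP2, CBS and CTH.

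The members and lists were chosen with earlier results of these data known. Values in every library are given for ATF4, ASNS, the most changed synthetase and members changed at least 1.5-fold in a drug or high-dose comparison, to at most 12 by size; the other members shown by library (such as SLC7A1, ATF5, ALDH18A1, STC2, VARS1 and WARS1) were chosen after their values were seen. Alternatives were DESeq2 1.42.0, a fit restricted to the 2 groups compared, size factors by RLE, a replicate block, no low-count filter, leaving out each of the 60 libraries in turn and, added after seeing the data, leaving out 4 libraries that stood apart (peony high 1, atractylodes high 1, licorice medium 3 and angelica low 2). On simulated data for thioridazine against vehicle (16619 genes) the test recovered 2, 28, 44 and 49 of 50 genes changed 1.1-, 1.25-, 1.5- and 2-fold, with 11 unchanged genes called. Far fewer genes were changed there than were called in the real comparison, so these values do not give the recovery in the real data.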

Additional observations from a re-analysis of the deposited data

How the results depend on the processing

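No direction of the 336 single-gene results reversed under any alternative run. Of the 336, 324 were called results, and the alternatives reused the same libraries, so reversals were unlikely from the start. The side of the threshold of these 336 results was the same in 334 with RLE size factors and 335 with DESeq2. It was the same in 296 without a filter on low counts and 316 in a fit of the 2 groups alone. With 1 library left out it was the same in 1756 of 1952, and without the libraries that stood apart in 36 of 51. The causes of the changes were not tested.

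The count of called members, against vehicle and with 1 library left out, ran over 38 to 40 for thioridazine, 23 to 25 for wortmannin, 26 to 29 for LY294002, 13 to 17 for poria high, 2 to 7 for atractylodes high, 22 to 25 for licorice high, 9 to 12 for ginseng high, 4 to 8 for angelica high, 12 to 26 for peony high. At the medium and low doses it ran over 1 to 3 for poria medium, 0 to 1 for atractylodes medium, 7 to 10 for licorice medium, 0 to 1 for ginseng medium, 0 to 2 for angelica medium, 0 to 1 for peony medium, 0 to 1 for poria low, 0 to 1 for atractylodes low, 0 to 1 for licorice low, 0 to 1 for ginseng low, 0 to 2 for angelica low, 0 to 2 for peony low. Between drugs or doses it ran over 36 throughout for thioridazine against LY294002, 36 to 37 for thioridazine against wortmannin, 5 to 7 for wortmannin against LY294002, 7 to 9 for poria high against low, 2 to 5 for atractylodes high against low, 23 to 24 for licorice high against low, 1 to 4 for ginseng high against low, 1 to 7 for angelica high against low, 6 to 18 for peony high against low.

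Other settings moved the count by more than 1.5 times as follows. In a fit of the 2 groups alone it was 2 for atractylodes high, 19 for angelica high, 7 for poria medium, 2 for atractylodes medium, 4 for licorice medium, 3 for ginseng medium, 11 for peony medium, 4 for poria low, 12 for licorice low, 0 for ginseng low, 7 for peony low, 14 for poria high against low, 1 for atractylodes high against low, 2 for ginseng high against low and 0 for angelica high against low. With DESeq2 it was 6 for poria medium, 3 for ginseng medium, 5 for peony medium, 3 for poria low, 6 for licorice low, 3 for ginseng low, 2 for angelica low, 6 for peony low and 5 for angelica high against low. Without a filter it was 10 for ginseng high, 5 for angelica high, 2 for angelica medium, 0 for peony medium, 2 for poria low, 2 for atractylodes low, 1 for licorice low and 3 for atractylodes high against low. With RLE size factors it was 2 for peony medium. Without the libraries that stood apart it was 3 for atractylodes high, 3 for angelica low and 3 for atractylodes high against low.

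The main fit did not pair samples by replicate number. Same-numbered libraries correlated between -0.067 and 0.225 in their deviations from the group means, which cannot show whether they were processed together. With the replicate block the count was 39 for thioridazine, 28 for wortmannin, 30 for LY294002 and 26 for licorice high, and no count moved by more than 1.5 times; ATF4 after licorice high then passed (adjusted p = 0.0490). With 2 or 3 libraries a group, changes of about 1.1-fold were rarely recovered in simulated data, in which few genes were changed.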
